A study of Mus musculus with 6 samples.

Results

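The 10 immediate early transcription factors Fos, Fosb, Jun, Junb, Jund, Egr1, Egr2, Atf3, Ier2 and Nr4a1 were described in RNA-seq of resident colonic macrophages (MΦs). They were chosen by gene symbol and were 10 of the 14097 genes listed. All 10 passed the filter on low values, a normalized count (reads divided by a size factor of the library) of at least 50 in at least 1 library, as did 11067 genes in all. The MΦs came from untreated 129SvEv mice lacking IL10Rβ, the signaling chain shared by the IL10 receptor and related cytokine receptors (Il10rb-/-), and from heterozygous controls (Il10rb+/-), at 1, 3 and 12 weeks of age. Mature P3/P4 MΦs of the lamina propria (LP) were sorted by the surface markers CD45+CD11b+CD11cintCD103-CD64+Ly6C-MHCII+ straight into lysis buffer. There were 6 libraries, 1 for each genotype at each age, from a pool of mice at 1 week and from a single mouse at 3 and 12 weeks. The receptor chain was missing from every cell of the Il10rb-/- mice, so the genotype comparison is not one of MΦs alone.

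Immediate early genes are transcribed within minutes of a stimulus, without new protein synthesis, by factors that already wait at their promoters, such as SRF with its ternary complex partners and CREB. Fos and Jun family proteins pair through leucine zippers into AP-1, EGR proteins bind GC-rich DNA through zinc fingers, and Nr4a1 is an orphan nuclear receptor. In MΦs they answer bacterial products, growth factors and calcium signals, and their transcripts are short-lived. Tissue dissociation can also induce them. Here every colon was shaken in EDTA and digested with collagenase at 37 °C before sorting, and the part of this handling in the levels below was not tested.

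Between 6700337 and 40754971 reads per library fell on the listed genes. Il10rb served as a check of the labels. Its normalized counts were 1221, 939 and 1107 in Il10rb+/- MΦs and 12.0, 24.6 and 27.4 in Il10rb-/- MΦs at 1, 3 and 12 weeks. All 16 MΦ markers examined passed the filter, with summed normalized counts between 920300 and 1540144. In the 12-week Il10rb-/- library 7 of these 16 were more than 3-fold below the control, and the chemokine receptor Cx3cr1, the mannose receptor Mrc1 and the scavenger receptor Cd163 were at 906, 618 and 52.2 normalized counts against 8074, 12185 and 4112. The 5 of the 16 that were higher there were genes of sort markers. Their log2 ratios over the control were 0.56 for Ptprc (CD45), 0.49 for Itgam (CD11b) and 0.04 for Fcgr1 (CD64). For H2-Ab1 and H2-Aa (MHCII) they were 0.30 and 0.03. Ly6c2, a gene of the Ly6C marker that the sort excluded, was at 4.19. Its log2 ratio was 4.87 in the 3-week pair and -0.40 in the 1-week pair, so it did not set the 12-week pair apart. The 12-week Il10rb-/- library stood apart in part of the MΦ markers. With bulk libraries, fewer cells of a type and less RNA per cell cannot be told apart.

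The regions upstream of 4 members are shown because these genes carry the comparisons below: Fos, the most abundant per kilobase in every library, Egr2, the member with the largest difference between ages, and Atf3 and Jun, which were among the members furthest below the control in Il10rb-/- MΦs at 12 weeks. Each is the 250 bases before a RefSeq transcript start on GRCm38.p6, the patch release of mm10, written 5′ to 3′ on the strand of the gene. Capitals mark matches to the motifs searched.
Fos, chr12:85473640-85473889, plus strand: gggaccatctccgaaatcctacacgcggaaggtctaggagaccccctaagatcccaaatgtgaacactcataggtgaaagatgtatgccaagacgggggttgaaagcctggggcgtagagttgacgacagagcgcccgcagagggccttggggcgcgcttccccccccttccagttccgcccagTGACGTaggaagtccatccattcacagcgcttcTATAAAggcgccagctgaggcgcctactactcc
Egr2, chr10:67537619-67537868, plus strand: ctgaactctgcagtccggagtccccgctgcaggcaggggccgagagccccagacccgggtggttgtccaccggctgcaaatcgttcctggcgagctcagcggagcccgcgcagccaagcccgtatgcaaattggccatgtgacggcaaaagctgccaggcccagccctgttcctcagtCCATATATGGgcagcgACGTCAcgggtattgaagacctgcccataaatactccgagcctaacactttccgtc
Atf3, chr1:191183334-191183583, minus strand: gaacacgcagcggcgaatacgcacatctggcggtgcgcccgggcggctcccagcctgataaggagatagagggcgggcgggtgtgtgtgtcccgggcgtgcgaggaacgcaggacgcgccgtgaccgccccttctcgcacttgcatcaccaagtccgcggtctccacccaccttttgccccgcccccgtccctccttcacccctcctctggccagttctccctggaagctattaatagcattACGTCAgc
Jun, chr4:95052223-95052472, minus strand: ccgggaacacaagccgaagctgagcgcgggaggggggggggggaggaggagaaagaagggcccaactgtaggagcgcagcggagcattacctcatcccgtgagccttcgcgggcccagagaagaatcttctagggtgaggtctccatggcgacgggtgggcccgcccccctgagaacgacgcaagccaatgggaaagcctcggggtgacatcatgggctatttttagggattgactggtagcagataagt
The motifs, each searched on both strands, were the cAMP response element core TGACGT, the AP-1 site TGANTCA, the TATA box TATAAA, the EGR site GCGTGGGCG and the CArG box bound by SRF. The reference set used here held 12 such RefSeq windows, for 8 of the members. It held none for Egr1 and Ier2, which were not searched. The cAMP response element core was found in Fos (66 to 61 bases upstream), Egr2 (56 to 51 bases upstream) and Atf3 (8 to 3 bases upstream). It occurred in 6.47% of all 32851 windows. The Egr2 window also held a CArG box 72 to 63 bases upstream, a motif present in 1.47% of windows, and the Fos window a TATA box 33 to 28 bases upstream, present in 12.4% of windows. A second Egr2 start, at 67537566, had another CArG box at the same distance. None of these matches overlapped another in the windows shown. The AP-1 site (6.75% of windows) and the EGR site (0.536% of windows) matched no window of the members, and none of the motifs matched the Jun window. A match is a run of letters and does not show that a factor is bound.

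Of the 10 members, 7 to 9 were among the 100 genes with the highest normalized counts of a library. Egr2 was in none of these sets, ranking between 127 and 646 of the listed genes. Together the members took 3.07% of the reads of 1-week Il10rb+/- MΦs and 2.96% of those of 1-week Il10rb-/- MΦs. At 3 weeks the shares were 4.73% and 3.76%. By 12 weeks they stood at 3.70% and 2.16%. By share of reads the 3-week Il10rb+/- library was thus the highest and the 12-week Il10rb-/- library the lowest. The Il10rb-/- share was the smaller of the pair at every age. In summed normalized counts the 1-week libraries were lowest instead, at 455487 (Il10rb+/-) and 437995 (Il10rb-/-). The 12-week Il10rb-/- library then stood at 486148, and the 3-week Il10rb+/- library was again the highest, at 771511.

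**Figure D1:**
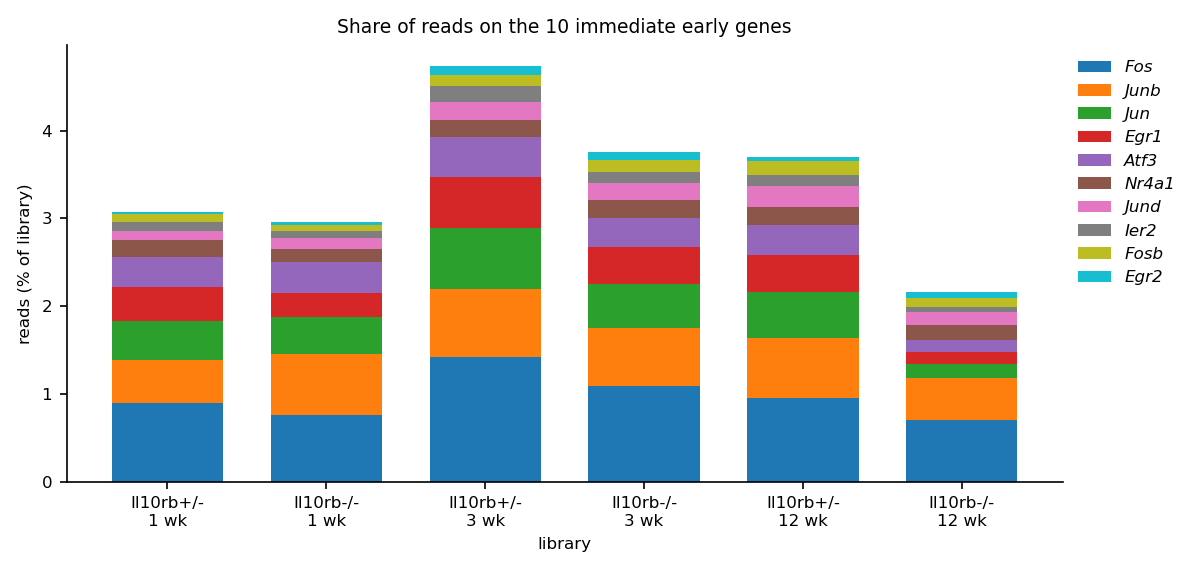
Share of each library's reads (y axis, percent of the reads on listed genes) taken by the 10 members, stacked by gene, for the 6 libraries (x axis). The stack is tallest in the 3-week Il10rb+/- library, at 4.73%, and shortest in the 12-week Il10rb-/- library, at 2.16%.

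Levels of different genes were compared per kilobase of annotated exon. Fos was first and Junb second of the 10 members in all 6 libraries, with medians of 72392 and 47423 normalized counts per kilobase. Atf3 and Jun followed at medians of 24860 and 23717 and changed places between libraries, so that their order was not separated by the spread over libraries. The lowest were Egr2 and Fosb, at medians of 3605 and 3527, and these also changed places. Between them lay Jund, Egr1, Ier2 and Nr4a1, with medians from 19743 to 9279 normalized counts per kilobase.

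**Figure D2:**
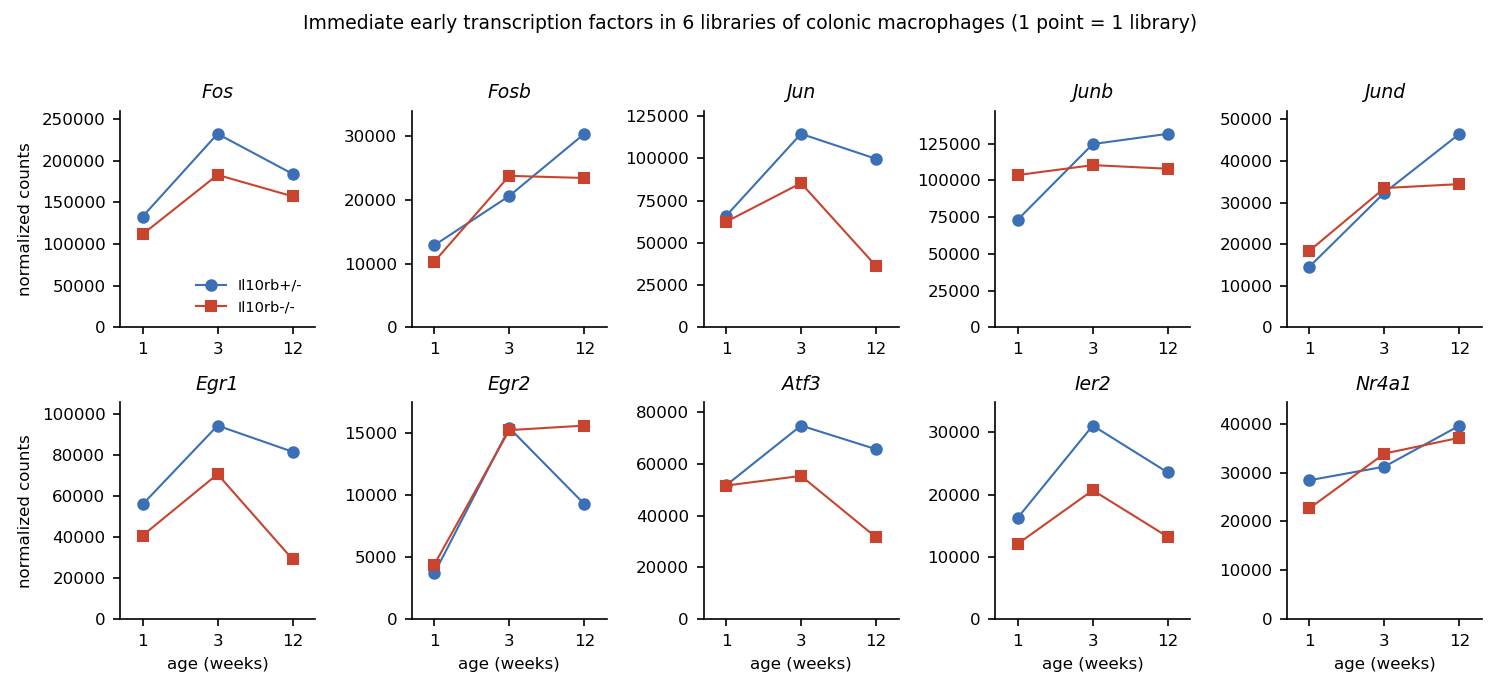
Normalized counts (y axis, from 0, scaled to each gene) of the 10 members at 1, 3 and 12 weeks (x axis) in Il10rb+/- (blue circles) and Il10rb-/- (red squares) MΦs. Each point is 1 library, and the lines join different mice of 1 genotype. All 10 members are higher at 3 weeks than at 1 week in both genotypes by this normalization (with scaling by total reads, Nr4a1 turns in the controls, and Junb and Atf3 turn in Il10rb-/- MΦs), and Jun, Egr1, Atf3 and Ier2 fall away from the control at 12 weeks.

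Fos, the main partner of Jun proteins in AP-1, stood at 132936, 232481 and 184354 normalized counts in Il10rb+/- MΦs at 1, 3 and 12 weeks and at 111761, 183135 and 157398 in Il10rb-/- MΦs. It was lower in Il10rb-/- MΦs at each age, and both 1-week libraries were below the 4 others. The log2 ratios of Il10rb-/- over Il10rb+/- were -0.25, -0.34 and -0.23 at 1, 3 and 12 weeks. Fos thus kept nearly the same distance between the genotypes, between 1.17-fold and 1.27-fold.

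Fosb, a relative of Fos with a shorter splice form linked to lasting stimulation, had 12866, 20609 and 30352 normalized counts in Il10rb+/- MΦs and 10294, 23760 and 23423 in Il10rb-/- MΦs. The genotypes overlapped, with the Il10rb-/- library the higher of the pair only at 3 weeks. Its log2 ratios were -0.32, 0.21 and -0.37.

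Jun, the founding member of AP-1 and a target of JNK kinases, had 65901, 114553 and 99753 normalized counts in Il10rb+/- MΦs and 62439, 85365 and 36293 in Il10rb-/- MΦs. The pair was close at 1 week and wide apart at 12 weeks, where the Il10rb-/- library was the lowest of the 6. The log2 ratios were -0.08, -0.42 and -1.46, the last a 2.75-fold difference with a 95% counting interval of -1.47 to -1.45. The annotation places the antisense transcript Junos opposite Jun, and with the strand setting of the counting not given in the sources used here, reads of the pair cannot be told apart.

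Junb, which often restrains Jun at shared sites, moved otherwise. Its normalized counts were 73234, 124674 and 131651 in Il10rb+/- MΦs and 103586, 110354 and 107888 in Il10rb-/- MΦs. The 3 Il10rb-/- libraries lay within 1.07-fold of each other and inside the range of the controls, which spanned 1.80-fold. Between genotypes the log2 ratios were 0.50, -0.18 and -0.29. Junb overlaps the peroxiredoxin gene Prdx2 on the opposite strand, with the same uncertainty.

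Jund, the Jun protein most often present in resting cells, had 14587, 32375 and 46525 normalized counts in Il10rb+/- MΦs, higher at each later age. In Il10rb-/- MΦs it had 18417, 33488 and 34432, with the later ages close together. The log2 ratios between genotypes were 0.34, 0.05 and -0.43. The antisense transcript Gm11175 lies opposite Jund in the annotation.

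Egr1, a zinc finger factor driven by ERK signaling, had 55865, 94279 and 81544 normalized counts in Il10rb+/- MΦs and 40696, 70611 and 29137 in Il10rb-/- MΦs. It was lower in Il10rb-/- MΦs at each age, and the 12-week Il10rb-/- library was the lowest of the 6. The log2 ratios were -0.46, -0.42 and -1.48, the last a 2.80-fold difference with a counting interval of -1.50 to -1.47.

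Egr2, its relative with a known part in myeloid and lymphoid differentiation, followed another course. It had 3677, 15409 and 9273 normalized counts in Il10rb+/- MΦs and 4390, 15228 and 15593 in Il10rb-/- MΦs. The pair was close at 1 and 3 weeks, and at 12 weeks Egr2 was the only member higher in Il10rb-/- MΦs. The log2 ratios were 0.26, -0.02 and 0.75, the last a 1.68-fold difference with a counting interval of 0.72 to 0.78.

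Atf3, a stress-induced bZIP factor that represses cytokine genes in MΦs, had 51712, 74831 and 65701 normalized counts in Il10rb+/- MΦs and 51625, 55383 and 31633 in Il10rb-/- MΦs. The genotypes were level at 1 week, where the counting interval of the log2 ratio was -0.02 to 0.02, and apart at the later ages. At 3 weeks the log2 ratio was -0.43 and at 12 weeks -1.05. The small RNA gene Gm24748 lies within Atf3 on the opposite strand.

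Ier2, a short protein induced with Fos, had 16275, 31081 and 23549 normalized counts in Il10rb+/- MΦs and 12089, 20693 and 13217 in Il10rb-/- MΦs. It was lower in Il10rb-/- MΦs at each age, and the distance was larger at each later age, with log2 ratios of -0.43, -0.59 and -0.83.

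Nr4a1, also called Nur77, had 28436, 31220 and 39622 normalized counts in Il10rb+/- MΦs and 22699, 33900 and 37133 in Il10rb-/- MΦs. It varied least of the 10, by 1.75-fold from the lowest to the highest library. The log2 ratios were -0.33, 0.12 and -0.09.

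Whether the members differed between genotypes was asked at each age and over all ages. Below, a difference is read as large when it exceeds 3-fold, the size the study used for its own comparison. No member passed it between genotypes at any age, where 3.5% of all genes passed it at 1 week, 1.98% at 3 weeks and 14.0% at 12 weeks. The Il10rb-/- library was the lower of the pair for 7, 7 and 9 of the 10 members at 1, 3 and 12 weeks. The median log2 ratio of the members was -0.16, -0.26 and -0.40, beside -0.04, 0.02 and 0.04 over all genes. Markers of other cells moved with the 1-week pair. All 11 epithelial markers past the filter were higher in the Il10rb-/- library, 7 of them over 3-fold (summed normalized counts of 1004 against 192 for 13 listed), as were all 10 stromal markers, 8 of them over 3-fold (1453 against 283). The monocyte markers summed to 13624 against 5005, with 2 of 10 over 3-fold higher. At 3 weeks these 3 lists stood at 835 against 1686, 3138 against 2986 and 24865 against 28434. The monocyte sum was led there by Ccr2, at 19378 against 20629. Of the 10 monocyte markers 3 were over 3-fold higher at 3 weeks, among them Ly6c2 at 284.9 against 9.7, and 1 was over 3-fold lower. The part of these 3 lists in the members' ratios was not tested. The counting intervals cover sampling of reads alone. With 1 library per genotype at an age there is no replicate check.

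**Figure D3:**
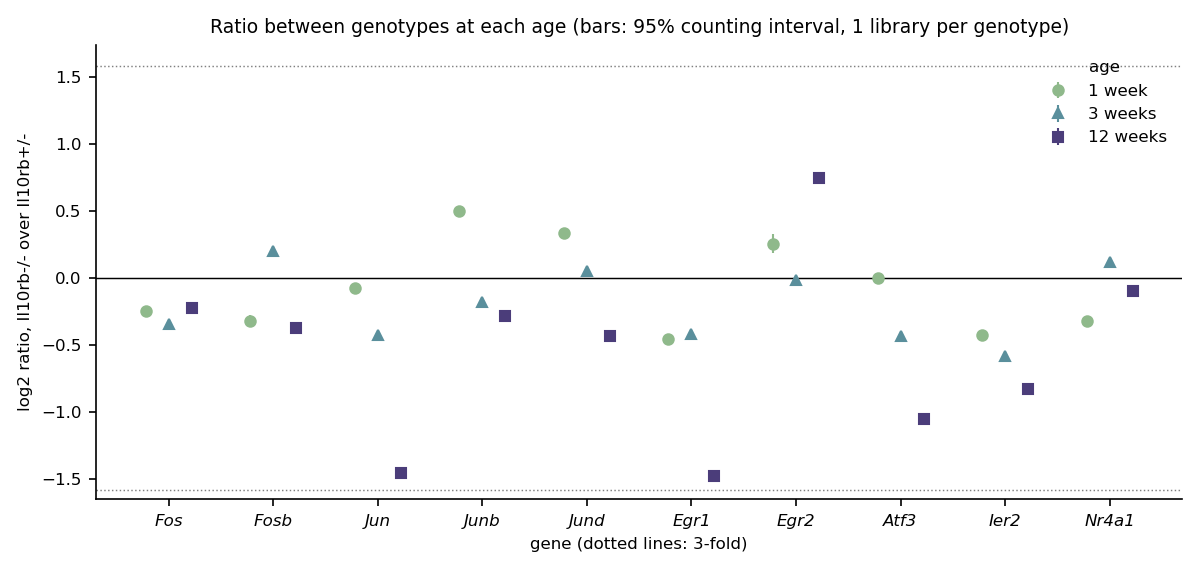
Log2 ratio of normalized counts, Il10rb-/- over Il10rb+/- (y axis), for each member (x axis) at 1 week (circles), 3 weeks (triangles) and 12 weeks (squares), 1 library per genotype and age. Bars are 95% counting intervals, mostly smaller than the symbols, and dotted lines mark 3-fold. Jun and Egr1 lie lowest at 12 weeks, at -1.46 and -1.48, and Egr2 alone lies above 0 at that age, at 0.75.

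Fos, Jun, Egr1, Atf3 and Ier2 were lower in Il10rb-/- MΦs at each of the 3 ages, 5 of 10 members, where 17.2% of all genes were. For Atf3 at 1 week that order was within counting error, and it turned to 0.02 when TMM scaling was used. For none of the 10 members did the 3 Il10rb-/- libraries lie wholly below the 3 controls (2.78% of all genes) or wholly above them (2.86%). limma, a linear model of log2(normalized count + 1) with genotype and age as terms, called 0 of 11067 genes between genotypes after Benjamini-Hochberg adjustment (0.0%), and 853 genes had an unadjusted p under 0.05. By limma the members furthest from 0 were Egr1, at -0.79 ± 0.31 (SE, adjusted p = 0.627), and Jun, at -0.65 ± 0.34 (adjusted p = 0.627). Ier2, at -0.62 ± 0.19 (adjusted p = 0.627 by limma), and Egr1 were the 2 members with an unadjusted p under 0.05, and both were lower in 3 of 3 ages. The order of these estimates rested on the 12-week pair. Without either 12-week library Jun was at -0.25 and Egr1 at -0.44, and Ier2, at -0.51, was then the furthest from 0. Junb and Jund were near 0 in this fit, at 0.01 and -0.02, with ratios of opposite sign at 1 and 12 weeks. The count of 0 became 74 without the 12-week Il10rb+/- library, 63 without the 12-week Il10rb-/- library and 18 without either 1-week library, and no member was called between genotypes in any of these fits.

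Several other values moved with the 12-week pair. The summed normalized counts of 10 monocyte markers were 40751 in the Il10rb-/- library against 19591, with 7 of 10 over 3-fold higher. Those of 10 neutrophil markers were 13613 against 1977, with 7 of the 8 past the filter over 3-fold higher and with Ngp and Camp at 0 reads in the other 5 libraries. Csf3r, at 6944 against 1420, led the neutrophil sum. S100a8 and S100a9, at 1673 and 2905.5 in the Il10rb-/- library, stand in both lists, so that these are not separate counts. Those of 10 stromal markers were 590 against 4598, with 9 over 3-fold lower, and those of 9 endothelial markers 1412 against 4603, with 7 over 3-fold lower. Dendritic cell markers summed to 41522 against 12863, but Ccr7 alone had 38707 against 10331, 1 of the 7 past the filter was over 3-fold higher, and Siglech, at 1055 in the control, had 0 reads. T cell markers summed to 1950 against 4405, a sum led by Cd4 (210 against 1712) and Il7r (947 against 1750). The T cell receptor genes Cd3d, Cd3e and Cd3g and the kinase gene Lck were instead higher in the Il10rb-/- library, at log2 ratios of 1.03, 1.23, 2.57 and 1.49, and Cd8a was at 26.1 normalized counts and at 0 reads in the other 5 libraries. B and plasma cell markers summed to 15387 against 25521, with 7 of 9 over 3-fold lower. Only 3 of 9 mast cell markers were listed, summing to 6304 against 601. Of these Hdc had 3749 against 110 (154.8 against 31.6 at 3 weeks) and Kit 2554 against 490 (540.8 against 114.4 at 3 weeks). Epithelial markers summed to 2550 against 1106, with 4 of the 11 past the filter over 3-fold higher and 1 over 3-fold lower. The 5 of 8 eosinophil markers listed summed to 145 against 878, led by Ear2 at 84.1 against 667. The 14 heat shock genes were all lower in the 12-week Il10rb-/- library, with a median log2 ratio of -0.61. At 3 weeks 13 of the 14 were instead higher in Il10rb-/- MΦs, with a median of 0.70, while 7 of the 10 members were lower. The part of these cells and of the heat shock genes in the members' levels was not tested.

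Age was compared within each genotype. From 1 to 3 weeks all 10 were higher in both genotypes, with a median log2 ratio of 0.78 in Il10rb+/- MΦs and 0.74 in Il10rb-/- MΦs, beside -0.04 and 0.01 over all genes. Egr2 alone exceeded 3-fold, at 4.19-fold in Il10rb+/- and 3.47-fold in Il10rb-/- MΦs, where 6.56% and 5.02% of all genes did in either direction. The smallest differences were those of Nr4a1 in Il10rb+/- MΦs, at 0.13, and of Junb and Atf3 in Il10rb-/- MΦs, at 0.09 and 0.10, and these 3 turned to -0.002, -0.09 and -0.08 with scaling by total reads. Other values moved with age too. The summed normalized counts of the heat shock genes were 220630 and 203951 at 1 week and 310991 to 700102 in the 4 older libraries, and those of the stromal markers 283 and 1453 at 1 week and 590 to 4598 later. The monocyte markers, at 5005 and 13624 in the 1-week libraries and 19591 to 40751 in the 4 others, had both 1-week libraries lowest. In Il10rb+/- MΦs the epithelial markers went from 192 at 1 week to 1686 at 3 weeks, and in Il10rb-/- MΦs from 1004 to 835. Their part in the members' levels was not tested.

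From 3 to 12 weeks the members parted. In Il10rb+/- MΦs Fosb, Junb, Jund and Nr4a1 were higher at 12 weeks, and the 6 others lower, with a range from -0.73 for Egr2 to 0.56 for Fosb. In Il10rb-/- MΦs Jund, Egr2 and Nr4a1 were higher by at most 0.13, and the lowest were Egr1 at -1.28, Jun at -1.23, Atf3 at -0.81 and Ier2 at -0.65. No member exceeded 3-fold over this interval, where 6.36% of all genes in Il10rb+/- MΦs and 14.2% in Il10rb-/- MΦs did.

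At 12 weeks against 1 week all 10 members were higher in Il10rb+/- MΦs, from 0.35 for Atf3 to 1.67 for Jund, which at 3.19-fold was the only one over 3-fold (12.3% of all genes). In Il10rb-/- MΦs 7 were higher, and Egr2 alone was over 3-fold, at 3.55-fold (18.7% of all genes). Jun, Egr1 and Atf3 were lower there, at -0.78, -0.48 and -0.71. These 3 were thus above their 1-week level in the older control and below it in the older Il10rb-/- mouse.

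For 6 of the 10 members, Fos, Fosb, Junb, Jund, Egr2 and Nr4a1, both 1-week libraries lay below all 4 libraries of older mice, where 14.4% of all genes showed this order. The normalization entered here. When libraries were scaled by total reads, the median of all genes was displaced by as much as -0.55 on the log2 scale (Il10rb-/- MΦs, 12 against 1 week), and 3 members kept this order. At 12 against 1 week in Il10rb-/- MΦs, Fos, Junb and Ier2 then had log2 ratios of -0.11, -0.54 and -0.47 in place of 0.49, 0.06 and 0.13. In Il10rb+/- MΦs Atf3 was then at -0.03 in place of 0.35. From 3 to 12 weeks the signs of Junb in Il10rb+/- MΦs (-0.16) and of Jund, Egr2 and Nr4a1 in Il10rb-/- MΦs (-0.38, -0.38 and -0.29) turned as well. Relative to the displaced median at 12 against 1 week in Il10rb-/- MΦs, Fos was higher, and Junb and Ier2 lay close to it.

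The limma fit, with both genotypes as the pair of libraries at each age, was then read across ages. From 1 to 3 weeks it called 2 genes in all (0.0181%), none of them a member. Egr2 was at 1.93 ± 0.26 (SE, adjusted p = 0.131 by limma), Jund at 1.01 ± 0.29 (adjusted p = 0.382) and Fosb at 0.94 ± 0.26 (adjusted p = 0.373). Without the 12-week Il10rb+/- or Il10rb-/- library, 988 or 1016 genes were called, and Egr2, Jund, Fosb and Ier2 were among them. Without the 1-week Il10rb+/- or Il10rb-/- library 6 or 33 genes were. From 3 to 12 weeks limma called 3 genes (0.0271%) and no member, and 0 members had an unadjusted p under 0.05 against 2261 of all genes. The count ranged from 1 without the 3-week Il10rb-/- library to 3124 without the 12-week Il10rb+/- library, and in the latter fit Jun (-1.32) and Egr1 (-1.27) were called. At 12 against 1 week it called 802 genes (7.25%), 555 higher and 247 lower at 12 weeks, a count that ranged from 267 without the 1-week Il10rb-/- library to 3909 without the 12-week Il10rb+/- library. Egr2 was the only member among them, at 1.58 ± 0.26 (SE, limma, adjusted p = 0.0315), higher in 2 of 2 genotypes. Fosb at 1.21 (adjusted p = 0.0534) and Jund at 1.29 (adjusted p = 0.0584) missed the threshold in the same limma fit. With a pseudocount of 10 in place of 1 both were called higher, as were 608 genes in all, with 318 called lower. The call of Egr2 was lost without the 1-week Il10rb+/- library (adjusted p = 0.0851 by limma) and without the 1-week Il10rb-/- library (adjusted p = 0.117), and with no trend of the variance on expression (adjusted p = 0.0755). The 1-week libraries came from pooled mice and the others from single mice, so that pooling and age cannot be told apart.

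Within each protein family the mix of members changed as well. Per kilobase, Jun made up 33.7%, 32.8% and 26.9% of the Jun family (Jun, Junb and Jund) in Il10rb+/- MΦs at 1, 3 and 12 weeks and 25.9%, 28.2% and 14.4% in Il10rb-/- MΦs. Junb was the largest part in every library, from 49.2% to 59.5%. Jund was 14.3% to 14.6% of the family at 1 week and 24.0% to 26.2% at 12 weeks.

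Among the EGR genes, Egr1 was 91.8%, 82.2% and 86.9% of the family (Egr1, Egr2 and Egr3) in Il10rb+/- MΦs and 87.4%, 77.7% and 58.6% in Il10rb-/- MΦs. Egr2 took nearly all of the remainder and reached 41.4% in the 12-week Il10rb-/- library, against 7.97% to 22.1% in the other 5. Egr3 never exceeded 0.225%. These shares are not altered by how libraries are scaled, since they are formed within a library.

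Fos was 92.8% to 96.4% of the Fos family (Fos, Fosb, Fosl1 and Fosl2) in the 6 libraries. Fosb was 3.22% to 5.79%, and Fosl2, a slower member, went from 0.359% in the 1-week control to 1.45% in the 12-week Il10rb-/- library. Nr4a1 was 95.8%, 95.6% and 94.1% of its family (Nr4a1, Nr4a2 and Nr4a3) in Il10rb+/- MΦs and 87.7%, 91.9% and 77.1% in Il10rb-/- MΦs. The share was lower in Il10rb-/- MΦs at each age, with more Nr4a2 and Nr4a3 there, while Nr4a1 itself differed by at most 1.25-fold.

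**Figure D4:**
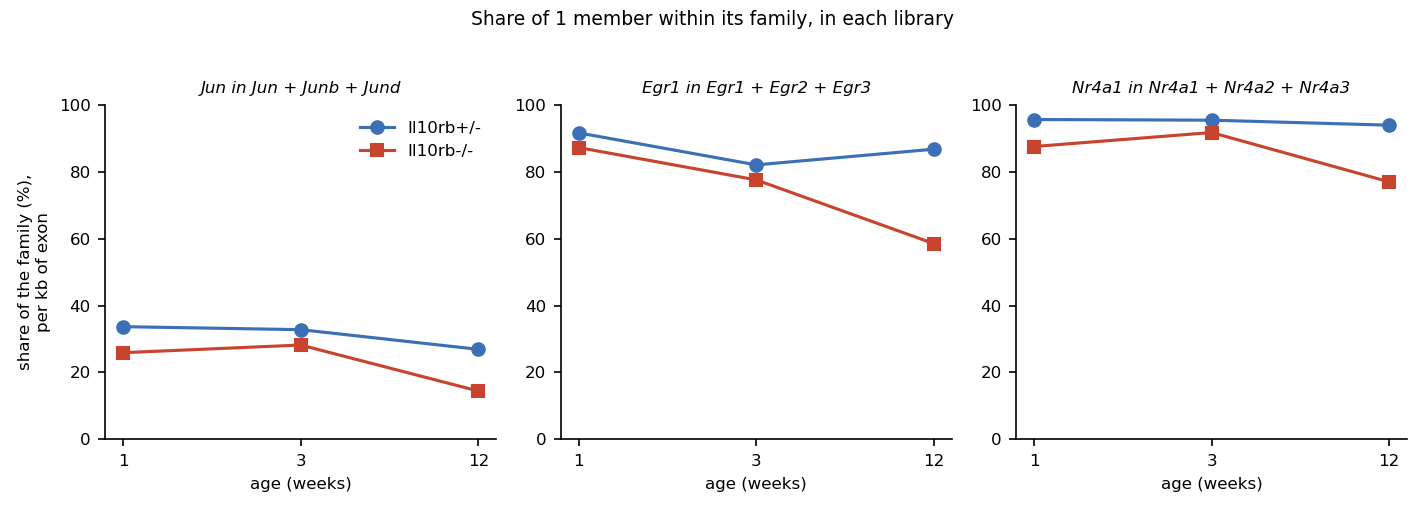
Share of Jun, Egr1 and Nr4a1 within their families (y axis, percent of the family's normalized counts per kilobase of exon) at 1, 3 and 12 weeks (x axis) in Il10rb+/- (blue circles) and Il10rb-/- (red squares) MΦs, 1 library per point. The Il10rb-/- library is the lower of the pair at each age in all 3 families, with the widest gap at 12 weeks, at 14.4% against 26.9% for Jun, 58.6% against 86.9% for Egr1 and 77.1% against 94.1% for Nr4a1.

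The relatives outside the 10 members took other courses. Nr4a2, an orphan receptor like Nr4a1, had 869, 998 and 1874 normalized counts in Il10rb+/- MΦs and 2455, 2194 and 9162 in Il10rb-/- MΦs, with log2 ratios of 1.50, 1.14 and 2.29. For Nr4a3 the ratios were 1.05, 0.93 and 1.84. Among 22 further bZIP factors past the filter, 6 were higher in Il10rb-/- MΦs at each age and 4 lower, beside 17.4% and 17.2% of all genes. The median log2 ratios of the 22 were 0.09, 0.12 and 0.04. Crem, which encodes cAMP-dependent activators and repressors, was the highest of them at 1 week, with log2 ratios of 1.45, 1.16 and 0.96, and Fosl1, the scarcest Fos protein gene here, had 1.01, 1.21 and 1.92. The lowest at 12 weeks was Maf, a factor of resident MΦs, at -3.05 after -0.06 and -0.31. The difference between these medians and those of the members was not tested.

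The other rapidly induced factors held 28 genes past the filter, with median log2 ratios of 0.08, -0.04 and -0.04 at 1, 3 and 12 weeks. Of these 11 were higher in Il10rb-/- MΦs at each age and 9 lower, beside 17.4% and 17.2% of all genes. The 11 included Nr4a2 and Nr4a3, given above, and Fosl1, Fosl2 and Maff, which stand in the bZIP list too. These are therefore not separate counts. At 12 weeks the lowest of the 28 were Zbtb10 at -2.18, the Notch target Hes1 at -2.15 and Klf2 at -1.78, a Krüppel-like factor that restrains MΦ activation. Over both genotypes, 11 of the 28 rose from 1 to 12 weeks by limma (Benjamini-Hochberg adjusted p under 0.05), beside 5.01% of all genes, and 0 were called lower, beside 2.23%. Among those that rose were Id1, by 2.36, and Bhlhe40, by 1.92 on the log2 scale. The count of 11 became 1 with no variance trend, where 70 of all genes were called higher and 13 lower. With scaling by total reads it became 7 higher and 4 lower, beside 454 higher and 2020 lower of all genes. The number called higher fell without any one of the 1-week and 3-week libraries. It rose without either 12-week library, where some were also called lower. Both changes were seen over all genes too. Bhlhe40 was not called without either 1-week library.

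Genes that end the response, such as dual-specificity phosphatases, RNA decay factors and NF-κB inhibitors, numbered 31 past the filter. Their median log2 ratios between genotypes were 0.04, -0.04 and -0.02. Dusp1, which switches off MAP kinases and is induced together with Fos, had 61147, 117232 and 126902 normalized counts in Il10rb+/- MΦs and 62469, 96544 and 103653 in Il10rb-/- MΦs, and was named after its values were seen. Of the 31, 9 rose and 1, Dusp6, fell from 1 to 12 weeks by limma, beside the 5.01% and 2.23% of all genes. The count of 9 became 0 with no variance trend, and 5 with scaling by total reads, where 2 were called lower. Over all genes these settings called 70 and 454 higher and 13 and 2020 lower. Without any one of the 1-week and 3-week libraries the number called higher fell, and Dusp6 was not called. Without either 12-week library the number called higher rose, and some were called lower. The number called higher over all genes changed in the same directions. The 30 upstream kinases and factors, ERK, JNK and p38 pathway genes with SRF, its partners and CREB, had medians of -0.09, 0.02 and 0.21. The kinase gene Map2k6 was the lowest at 12 weeks, at -2.19, and Mapk8, which encodes JNK1, the highest, at 1.14. Srf was 0.72, 0.46 and 0.11 above the control. Map2k3 was the only one of the 30 that limma called from 1 to 12 weeks, at 1.43 and higher at 12 weeks, a call that was lost without either 1-week library, with scaling by total reads and with no variance trend. Without either 12-week library more of the 30 were called, some higher and some lower, as were more of all genes.

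The 28 effector genes that AP-1, EGR or NR4A proteins are known to act on had medians of 0.04, 0.05 and -0.22 and were widely spread at 12 weeks. Vegfa, which encodes a vascular growth factor, was over 3-fold higher in Il10rb-/- MΦs at every age, at 1.97, 2.20 and 2.79 on the log2 scale. Ptgs2, the inducible prostaglandin synthase gene, was at 2.76 and Il6 at 2.57 at 12 weeks, while the collagenase gene Mmp13 was at -3.44. From 1 to 12 weeks 7 of the 28 rose by limma, among them Il1b by 2.46, and 0 were called lower, beside the 5.01% and 2.23% of all genes. The count of 7 became 0 with no variance trend and 6 with scaling by total reads, beside 70 and 454 of all genes. Without any one of the 1-week and 3-week libraries the number called higher fell. Without either 12-week library it rose, and both changes were seen over all genes too. Some effector genes were called lower without the 12-week Il10rb+/- library. Il1b was not called without any one of the 1-week and 3-week libraries. No gene of these lists was called between genotypes by limma, in which 0 of 11067 genes were. The part of the members in the levels of these genes was not tested.

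**Figure D5:**
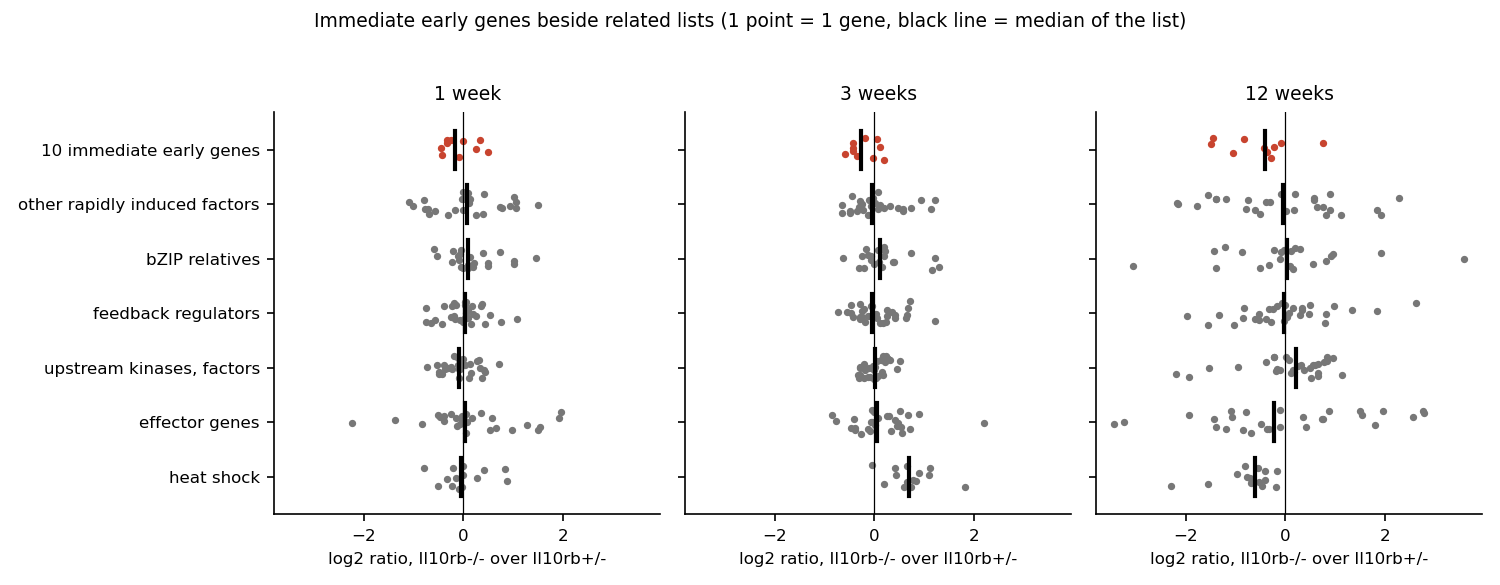
Log2 ratio of normalized counts, Il10rb-/- over Il10rb+/- (x axis), for the 10 members (red) and the genes of 6 related lists (grey; rows on the y axis) at 1, 3 and 12 weeks, 1 point per gene and 1 library per genotype and age. Black lines are list medians, which for the members lie at -0.16, -0.26 and -0.40 and for the heat shock genes at -0.06, 0.70 and -0.61.

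Likeness to the members was measured as the root mean square difference between a gene's log2 profile over the 6 libraries, centred on its mean, and the mean centred profile of the 10 members. In Il10rb+/- MΦs that mean profile was -0.42, 0.44 and 0.39 at the 3 ages in order, and in Il10rb-/- MΦs -0.50, 0.24 and -0.16. Among the members, Fos was nearest to it, at 0.12, and Egr2 furthest, at 0.64. Of the 11067 genes past the filter, 6 lay nearer to it than Fos, 1559 nearer than Egr1, 1591 nearer than Jun and 7560 nearer than Egr2. The mean profile thus did not stand for every member. Among the 8 nearest other genes were Add3, Rwdd2a, Antxr2, Rbms2, Mrgpre, Pde12 and Ctsl, at 0.075 to 0.123. Of these Ctsl, the cathepsin L gene, had between 8000 and 16500 normalized counts. Likeness over 6 libraries is a description and says nothing of shared control.

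The 10 genes are spread over the genome, with 3 of them on chromosome 8. In mm10 (GENCODE M21) these are Jund at chr8:70698949-70700616 on the plus strand and Ier2 at chr8:84661331-84662852 and Junb at chr8:84974484-84978718 on the minus strand. Ier2 and Junb had different courses in spite of their nearness, with log2 ratios between genotypes of -0.43 and 0.50 at 1 week. Fos lies at chr12:85473890-85477273 on the plus strand, Fosb at chr7:19302696-19310051 on the minus strand and Jun at chr4:95049034-95052222 on the minus strand. Egr1 lies at chr18:34859823-34864984 and Egr2 at chr10:67535475-67542188, both on the plus strand, Atf3 at chr1:191170296-191218039 on the minus strand and Nr4a1 at chr15:101254269-101274795 on the plus strand. All are protein-coding, with between 1522 and 6243 bases of annotated exon.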

How the data were processed

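RNA-seq was run on 6 libraries of sorted colonic P3/P4 MΦs. Per the labels, the authors trimmed reads with Trim Galore, aligned them to mm10 with TopHat, counted them per gene with HTSeq and normalized the counts with DESeq. The deposited values are a normalized signal, each count divided by a size factor of its library, and 0 reads are shown as 1. All values other than 1 were whole multiples of 1 read within 0.02, which gave the depth of each library, from 6700337 to 40754971 reads on listed genes. The strand setting and tool versions were not given in the sources used here.

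Values were used as deposited, and genes needed at least 50 normalized counts in at least 1 library. limma 3.58.1 in R 4.3.3 was fitted to log2(normalized count + 1) with genotype and age as terms, 2 residual degrees of freedom, a variance trend and Benjamini-Hochberg adjustment over 11067 genes at 0.05. The count tests planned as alternatives were not run. Ratios of 2 libraries carry 95% exact (Clopper-Pearson) counting intervals, which cover counting error only. The libraries of 1 group had no replicate. The error of the limma fit is how the age effect varies between genotypes, or equally how the genotype effect varies between ages. Its p-values therefore do not measure a spread between replicate samples. Python 3.11.15 and pandas 2.3.3 did the rest, and scripts were tested on simulated data.

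The members and the lists were chosen with earlier results of these data known. All 10 members were named in every comparison. From other lists, genes more than 3-fold apart at 2 or more ages in 1 direction and up to 3 extremes at an age could be named, with the 8 genes nearest in profile. Some genes that met the rule are not reported here. Alternatives were a pseudocount of 10, no filter, TMM or total-read scaling, no variance trend, no age term and leaving out each library.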

Additional observations from a re-analysis of the deposited data

Results flagged for a closer look

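Differences of log2 ratios are given here for members that moved in opposite directions in both groups compared. With 1 library per genotype and age, none of these differences was tested. The ratio of Il10rb-/- over Il10rb+/- MΦs changed sign between ages for 5 members, and for 4 of them with counting intervals on opposite sides of 0. The exception was Egr2, whose ratio of -0.02 at 3 weeks was within counting error of 0. For Fosb it was 0.21 at 3 weeks and -0.37 at 12 weeks, a difference of -0.58. For Junb it was 0.50 at 1 week and -0.29 at 12 weeks, a difference of -0.79. For Jund it was 0.34 at 1 week and -0.43 at 12 weeks, a difference of -0.77. For Nr4a1 it was -0.33 at 1 week and 0.12 at 3 weeks, a difference of 0.44.

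The change with age had opposite signs in the genotypes for 6 members, and for 5 of them with counting intervals on opposite sides of 0. The exception was Fosb, which from 3 to 12 weeks had 0.56 in Il10rb+/- MΦs and -0.02, within counting error of 0, in Il10rb-/- MΦs. From 1 to 12 weeks Jun went up by 0.60 in Il10rb+/- MΦs and down to -0.78 in Il10rb-/- MΦs, a difference of -1.38 on the log2 scale. Egr1 had 0.55 and -0.48, a difference of -1.03, and Atf3 had 0.35 and -0.71, a difference of -1.05. From 3 to 12 weeks Egr2 had -0.73 in Il10rb+/- MΦs and 0.03 in Il10rb-/- MΦs, a difference of 0.77. Junb had 0.08 and -0.03, a difference of -0.11. The signs of Egr2 and Junb from 3 to 12 weeks and of Atf3 from 1 to 12 weeks turned in 1 genotype when libraries were scaled by total reads.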

How the results depend on the processing

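The edgeR and DESeq2 alternatives were not run. The limma calls over all genes moved with several choices. Between genotypes the 0 calls became 1 with a pseudocount of 10 and 1 with no age term, and ranged from 0 to 74 when a library was left out (74 without the 12-week Il10rb+/- library, 63 without the 12-week Il10rb-/- library, 18 without either 1-week library). From 1 to 3 weeks the 2 calls became 8 with a pseudocount of 10 and 0 with no trend (916 at an unadjusted p under 0.05), and ranged from 1 to 1016 without 1 library (988 and 1016 without the 12-week Il10rb+/- or Il10rb-/- library). From 3 to 12 weeks the 3 calls became 8 with a pseudocount of 10, 0 with scaling by total reads and 0 with no trend (3012 and 1942 unadjusted), and ranged from 1 to 3124 (3124 without the 12-week Il10rb+/- library, 657 without the 12-week Il10rb-/- library). At 12 against 1 week the 802 calls became 2474 with scaling by total reads and 83 with no trend, and ranged from 267 to 3909 (267 and 391 without the 1-week Il10rb-/- or Il10rb+/- library, 3909 and 2318 without the 12-week Il10rb+/- or Il10rb-/- library). Leaving out a library leaves 1 at its age, which is assumed to vary like the others. The cause of these changes was not tested.

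The call of Egr2 at 12 against 1 week held with a pseudocount of 10, no filter and both other scalings. Without either 12-week library the limma fit from 1 to 3 weeks called Fosb, Jund, Egr2 and Ier2. Among limma estimates of the members, log2 signs turned with scaling by total reads for Junb between genotypes (-0.076), for Fosb (-0.06), Junb (-0.31), Jund (-0.047) and Nr4a1 (-0.091) from 3 to 12 weeks, and for Fos (-0.006), Junb (-0.037), Egr1 (-0.46) and Ier2 (-0.16) at 12 against 1 week. With TMM scaling Junb from 3 to 12 weeks was at -0.004. Without 1 library at a time, estimates between genotypes ranged from -0.23 to 0.16 for Junb, -0.19 to 0.19 for Jund and -0.21 to 0.013 for Nr4a1. From 1 to 3 weeks Atf3 ranged from -0.054 to 0.69. From 3 to 12 weeks Fosb ranged from -0.008 to 0.55, Junb from -0.20 to 0.25 and Jund from -0.032 to 0.60. At 12 against 1 week Jun ranged from -0.70 to 0.51, Egr1 from -0.49 to 0.56 and Atf3 from -0.60 to 0.24. None of these was called.

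The median log2 ratio of the members between genotypes became -0.14 at 1 week and -0.42 at 12 weeks with TMM scaling, and -0.31 at 3 weeks and -0.63 at 12 weeks with scaling by total reads. Between ages TMM scaling gave 0.81 (Il10rb+/-, 3 over 1 week) and, in Il10rb-/- MΦs, -0.16 (12 over 3 weeks) and 0.28 (12 over 1 week). Scaling by total reads gave 0.65, -0.44 and 0.19 in Il10rb+/- MΦs and 0.56, -0.54 and -0.29 in Il10rb-/- MΦs for 3 over 1, 12 over 3 and 12 over 1 weeks, and 3 members with both 1-week libraries lowest. Depth did not limit the members, each with at least 2931 reads in every library.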
